A study of Mus musculus with 2 samples.

Results

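The 44 collagen genes of the mouse were followed across the stromal, vascular, nerve and muscle stem cells of gastrocnemius muscle and across lung cells. They were taken by symbol, as every gene named Col, a number, a and a number, and made up 44 of the 55416 genes counted. The data were 2 single-cell RNA libraries, 1 from muscle and 1 from lung, of cells passed over CD45 magnetic beads after Liberase TL and DNase I digestion and lysis of red cells. The labels call the animals TB mice and give their genotype as CAC mouse model, short names whose meaning was not assumed. The design text speaks of tumor-bearing mice, and the number, age and treatment of the mice are not given in the sources used here. With 1 library per tissue there was no replicate and no test between classes or tissues. Brackets hold exact 95% intervals, which cover counting error only.

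Collagens are trimeric proteins with a triple helix, secreted into the extracellular matrix or held in the cell membrane. Fibrillar collagens form the rope-like fibrils that carry tension, basement membrane collagens of type IV form a sheet-like network under epithelia and around vessels, nerves and muscle fibres, and the remaining families decorate fibrils, link them to other structures or anchor cells. In skeletal muscle they build the connective tissue sheaths around fibres and bundles, the tendon ends and the basement membrane beneath which satellite cells, the muscle stem cells, lie.

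Of the 44 genes, 42 had a count in kept muscle cells and 41 in kept lung cells, and 34 reached 10 counts and 10 CPM in a named class of 20 cells or more. CPM (counts scaled to a common total) is a gene's unique molecular identifiers (UMIs, counted RNA molecules) per 1000000 UMIs of all genes in a class. The 34 comprised 10 of 11 fibrillar, 6 of 6 basement membrane network, 2 of 2 multiplexin, 4 of 6 beaded filament, 1 of 1 anchoring fibril, 2 of 3 short chain network, 6 of 9 FACIT (fibril-associated), 2 of 4 transmembrane and 1 of 2 other collagens. Col2a1, Col6a4, Col6a5, Col9a1, Col9a2, Col9a3, Col10a1, Col17a1, Col25a1 and Col26a1 stayed under that level.

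The promoters of 4 collagens are shown because these genes stood highest in different muscle classes, Col3a1 and Col5a1 in fibroblast-like cells and Col24a1 and Col28a1 in Schwann-like cells. Each is the 250 bases before the RefSeq start site on build GRCm38.p6, at chr1:45311288-45311537 (plus strand), chr2:27886175-27886424 (plus strand), chr3:145292222-145292471 (plus strand) and chr6:8192618-8192867 (minus strand), and no GENCODE exon lay inside any of the 4 windows. Capitals mark a motif on either strand, out of CCAAT (the CCAAT box), TATAAA (the TATA box) and GGGCGG (the GC box).
Col3a1: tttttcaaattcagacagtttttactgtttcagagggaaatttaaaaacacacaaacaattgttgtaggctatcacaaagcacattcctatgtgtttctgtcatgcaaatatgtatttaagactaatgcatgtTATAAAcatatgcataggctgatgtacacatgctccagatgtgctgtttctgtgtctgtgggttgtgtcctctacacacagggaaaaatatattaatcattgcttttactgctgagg
Col5a1: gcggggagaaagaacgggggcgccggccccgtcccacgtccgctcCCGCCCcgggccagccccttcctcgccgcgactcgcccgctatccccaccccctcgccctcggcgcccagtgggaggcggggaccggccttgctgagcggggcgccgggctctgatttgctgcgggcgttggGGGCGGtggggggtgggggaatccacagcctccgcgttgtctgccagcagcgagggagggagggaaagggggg
Col24a1: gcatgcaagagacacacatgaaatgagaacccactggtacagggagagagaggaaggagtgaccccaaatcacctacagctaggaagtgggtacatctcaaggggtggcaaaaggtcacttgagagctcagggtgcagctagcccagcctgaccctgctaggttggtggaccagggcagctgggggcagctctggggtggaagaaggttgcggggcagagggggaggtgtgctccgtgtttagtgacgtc
Col28a1: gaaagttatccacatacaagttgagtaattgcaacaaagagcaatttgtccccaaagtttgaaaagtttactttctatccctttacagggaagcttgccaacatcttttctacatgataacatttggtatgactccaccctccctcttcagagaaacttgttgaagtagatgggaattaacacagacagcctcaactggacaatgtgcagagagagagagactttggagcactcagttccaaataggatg
The Col3a1 window held 1 TATAAA, 117 bases before the start, and the Col5a1 window 2 copies of GGGCGG (1 on each strand, as CCGCCC on the strand shown) at 205 and 73 bases. The Col24a1 and Col28a1 windows held none of the 3 letter runs. In base composition the windows ran from 35.2% G or C for Col3a1, through 40.4% for Col28a1 and 58.0% for Col24a1, to 76.4% for Col5a1. Among the 35 collagen genes with a promoter in the table, CCAAT was found in 13, TATAAA in 5 and GGGCGG in 21. Some genes have more than 1 promoter there, and counted by promoter the numbers were 13, 5 and 22 of 38. Over all 32851 promoters of the table, 33.8% held CCAAT, 12.4% TATAAA and 32.7% GGGCGG. A match is a run of letters only.

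The muscle library held 14056163 UMIs over 5547 barcodes and the lung library 34751225 over 8481. At least 200 genes and at most 10% mitochondrial UMIs left 2243 and 8194 barcodes, and 2143 and 7638 after likely doublets were removed, with median depths of 3093 and 2138 UMIs. The libraries shared 64 barcode sequences, 21 of them among kept cells. Cells were grouped without using collagen genes, and a group was called "-like" where it carried the markers of a cell type. Ptprc, which encodes CD45, stood at 0 to 4.58 CPM in the 6 muscle classes described here although the cells had passed CD45 beads, so their proportions are not those of the tissue. Defining markers stood in their own class: Pdgfra at 435 CPM in fibroblast-like, Rgs5 at 4196 CPM in mural-like (pericyte and smooth muscle), Pecam1 at 1298 CPM in endothelial-like, Pax7 at 442 CPM in satellite-like and Tnmd at 723 CPM in tenocyte-like cells.

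Muscle fibroblast-like cells, the makers of connective tissue matrix, carried the highest summed collagen level of the muscle classes, 15100 CPM [14880 to 15320] over 231 cells. Tenocyte-like cells (tendon fibroblasts) followed with 6505 CPM [6172 to 6852] in 46 cells. Schwann-like cells, which ensheath axons, held 3497 CPM [3267 to 3739] in 83 cells and mural-like cells 2993 CPM [2864 to 3127] in 216. Endothelial-like cells held 2032 CPM [1987 to 2077] in 1200 cells and satellite-like cells 1419 CPM [1252 to 1601] in 55. No 2 neighbours in this order had overlapping intervals, but with TMM scaling Schwann-like (2974 CPM) and mural-like cells (2972 CPM) were level, and at clustering resolution 2.0 mural-like cells (13900 CPM) stood above fibroblast-like cells (8056 CPM). Muscle leukocytes, which should make almost no collagen, held 43.5 CPM [35.6 to 52.7] in 309 cells.

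In lung the highest level stood in 18 fibroblast-like cells with 42870 CPM [42170 to 43570], then in 32 endothelial-like cells with 7976 CPM [7674 to 8288] and 419 epithelial-like cells with 404 CPM [383 to 425]. The 6450 lung leukocytes held 49.4 CPM [46.6 to 52.4]. Collagens made up 0.348% of kept muscle UMIs and 0.0677% of kept lung UMIs, and most kept lung cells were leukocytes.

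**Figure D1:**
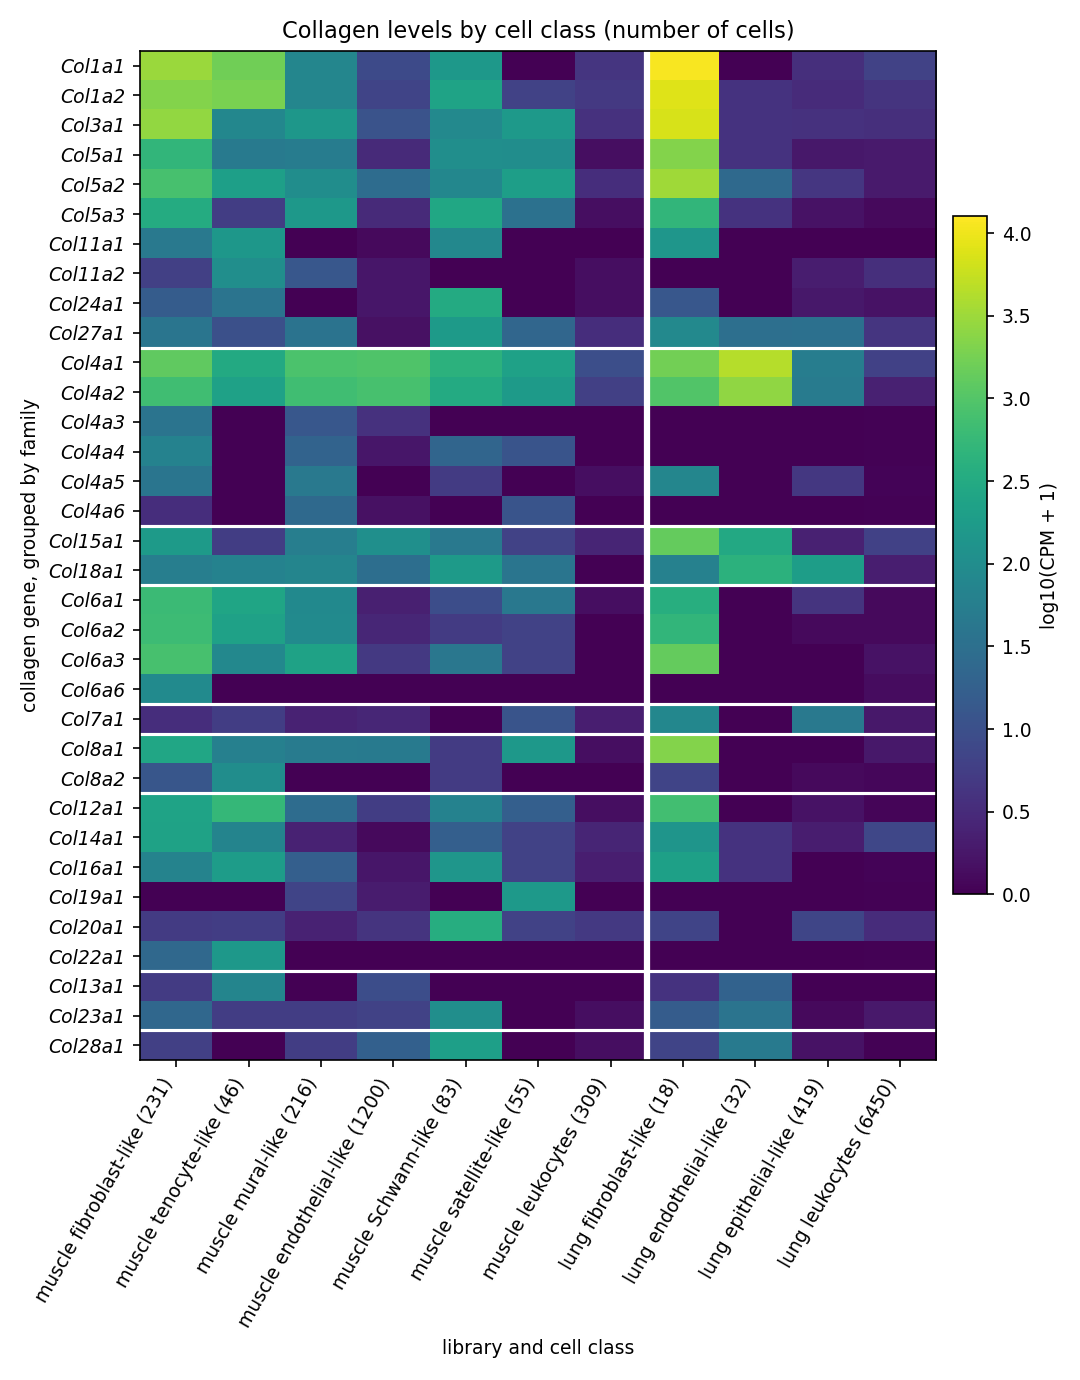
Colour shows the level of each of the 34 collagen genes that passed the level rule (rows, grouped by family) as log10(CPM + 1) in 11 classes of muscle and lung cells (columns, with the number of cells). Col1a1 and Col1a2 are brightest in fibroblast-like and tenocyte-like columns, Col24a1 and Col27a1 are brightest among muscle columns in Schwann-like cells, Col4a1 and Col4a2 are bright in all stromal and vascular columns, and the leukocyte columns stay dark, where Col1a1 was 3.32 CPM (muscle) and 5.52 CPM (lung).

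Of the 44 collagens 28 could be compared among 5 muscle classes (fibroblast-, mural-, endothelial-, Schwann- and satellite-like), the others having too few counts. A gene was said to be led by a class where its CPM was at least 4 times the next highest of the 5, the interval of the ratio excluded 2 and the class held at least 30 counts. Fibroblast-like cells led 9 collagens, Schwann-like cells 4 and satellite-like cells 1. With tenocyte-like cells as a sixth class fibroblast-like cells led 3, and with a minimum of 100 counts Schwann-like and satellite-like cells led 0. The count also depended on the clustering: at the finer resolution of 2.0 fibroblast-like cells led 2 collagens, and Col1a1, Col1a2, Col3a1, Col5a1, Col5a2, Col6a1 and Col6a2 were higher in another of the 5 classes, at ratios of 0.168 (Col1a1) to 0.837 (Col6a1). Among all 10057 genes tested fibroblast-like cells led 1.9%, Schwann-like cells 2.34% and satellite-like cells 0.487%. Mural-like and endothelial-like cells led no collagen, against 1.67% and 2.28% of all genes. The median lead of the highest over the next class was 1.93 on the log2 scale for the 28 collagens and 0.45 for all genes. By family the classes led 7 of 9 fibrillar, 3 of 4 beaded filament, 3 of 5 FACIT and 1 of 1 other collagens tested, and none of 5 basement membrane network, 2 multiplexin, 1 short chain or 1 transmembrane collagens. Any of the 5 classes led 872 of all 10057 genes tested (8.67%). Beside that share, none of so few genes is no result about a family.

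Type I collagen, the main protein of tendon, bone and skin fibrils, is built from 2 gene products, Col1a1 and Col1a2. Col1a1 stood at 3075 CPM [2977 to 3176] in muscle fibroblast-like cells, 1647 CPM in tenocyte-like, 155 CPM in Schwann-like, 74.5 CPM in mural-like and 7.45 CPM in endothelial-like cells, with no count in satellite-like cells. The fibroblast-like level was 19.9 times that of Schwann-like cells [14.4 to 28.1], the next of the 5 classes. Col1a2 followed the same order, with 2205 CPM in fibroblast-like, 1857 CPM in tenocyte-like, 236 CPM in Schwann-like, 75.9 CPM in mural-like, 5.91 CPM in endothelial-like and 5.39 CPM (1 count) in satellite-like cells. Its lead over Schwann-like cells was 9.34 [7.199 to 12.33]. With tenocyte-like cells counted as a sixth class, neither gene was led by fibroblast-like cells, the ratios being 1.87 for Col1a1 and 1.19 for Col1a2.

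Type III collagen, encoded by Col3a1, forms the fine reticular fibres of pliable tissues, and its order of classes was another. Col3a1 stood at 2706 CPM [2614 to 2800] in fibroblast-like cells, then at 156 CPM in satellite-like, 146 CPM in mural-like, 85.5 CPM in Schwann-like, 77.8 CPM in tenocyte-like and 10.0 CPM in endothelial-like cells. The lead of fibroblast-like cells was 17.3 [12.0 to 25.9], while the intervals of the satellite-like and mural-like levels overlapped. Tenocyte-like cells thus held Col1a1 and Col3a1 in another proportion than fibroblast-like cells, at 21.2 Col1a1 counts [13.04 to 36.76] per Col3a1 count against 1.14 [1.08 to 1.19]. Satellite-like cells lay at the other end, with 29 counts of Col3a1 and none of Col1a1, which allows a ratio of at most 0.136. Such a ratio compares classes, not the 2 genes, since capture can differ between genes.

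Type V collagen sits in the core of type I fibrils and sets their width. Col5a1 stood at 504 CPM [465 to 546] in fibroblast-like, 106 CPM in Schwann-like and 102 CPM in satellite-like cells, a lead of 4.76 [3.22 to 7.35]. Col5a2 stood at 801 CPM [752 to 854] in fibroblast-like, 206 CPM in tenocyte-like and 200 CPM [140 to 275] in satellite-like cells, a lead of 4.01 [2.89 to 5.74] over the last that lay at the 4-fold limit and of 3.89 over tenocyte-like cells, under it. Col5a3 was not led by any class, at 337 CPM [305 to 371] in fibroblast-like, 277 CPM [215 to 351] in Schwann-like and 150 CPM in mural-like cells. Endothelial-like cells held Col5a2 at 26.7 CPM (104 counts) and Col5a1 at 2.06 CPM (8 counts), a ratio of 0.0769 [0.0324 to 0.157] against 0.629 [0.568 to 0.697] in fibroblast-like cells. The 2 chains of the common type V trimer were therefore counted in unequal proportion in these classes.

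Type XI collagen is the cartilage and tendon relative of type V. Col11a1 stood at 146 CPM [100 to 207] in tenocyte-like, 81.4 CPM in Schwann-like and 44.6 CPM in fibroblast-like cells, with no count in mural-like or satellite-like cells. Col11a2 reached 105 CPM [66.7 to 158] in tenocyte-like cells, where 9 of 46 cells held a UMI, and at most 11.9 CPM in the other muscle classes described here.

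Type VI collagen forms beaded filaments that link cells to the matrix around muscle fibres, and its genes are mutated in inherited muscle disease. Col6a1 stood at 623 CPM, Col6a2 at 643 CPM and Col6a3 at 792 CPM in fibroblast-like cells. Mural-like cells were next of the 5 classes with 86.4, 90.8 and 226 CPM, which gave leads of 7.22 [5.52 to 9.60], 7.08 [5.45 to 9.34] and 3.50 [2.94 to 4.18], the last under the 4-fold limit. Tenocyte-like cells, outside the 5, stood above mural-like cells for Col6a1 (261 CPM) and Col6a2 (224 CPM), and with them as a sixth class the leads were 2.39 and 2.87 and neither gene was called. Endothelial-like cells held 1.29 to 3.86 CPM of the 3 genes. The count of Col6a1 per count of Col6a3 was 0.787 [0.715 to 0.867] in fibroblast-like, 0.382 [0.277 to 0.520] in mural-like and 3.17 [1.84 to 5.72] in tenocyte-like cells. Col6a1 and Col6a2 kept closer proportions, at 0.969, 0.951 and 1.16 in the same 3 classes. Col6a6 stood at 90.8 CPM [74.6 to 109] over 52 of 231 fibroblast-like cells and had no count in the other 5 muscle classes. This was at least 20.3-fold higher than the 3-count limit of mural-like cells (4.47 CPM). The limits of satellite-like (16.2 CPM), tenocyte-like (13.7 CPM) and Schwann-like cells (12.2 CPM) were higher, so the bound against these classes is smaller.

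The FACIT collagens bind to the surface of fibrils. Col14a1 stood at 229 CPM [202 to 257] in fibroblast-like cells, 68.6 CPM in tenocyte-like and 16.3 CPM (4 counts) in Schwann-like cells, a lead of 14.04 [5.42 to 51.9] over the last and of 3.33 over tenocyte-like cells, under the limit. Col12a1 was highest in tenocyte-like cells with 535 CPM [443 to 642], where 36 of 46 cells held a UMI, against 235 CPM [209 to 264] in fibroblast-like and 65.1 CPM in Schwann-like cells. Col22a1, a collagen of the muscle to tendon junction, was counted 33 times in tenocyte-like cells (151 CPM) and 28 times in fibroblast-like cells (23.1 CPM), with no count in the other 4 muscle classes. In tenocyte-like cells these counts lay in 5 cells, and 1 cell held 25 of them. Col8a2, a short chain collagen, likewise stood at 101 CPM [63.1 to 152] in tenocyte-like and 11.6 CPM in fibroblast-like cells.

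The fibrillar collagen of muscle fibroblast-like cells was carried by few cells. For Col1a1, 10 of the 231 cells held 84.4% of the counts and 1 cell 20.6%, and for Col3a1 10 cells held 73.8%. For Col4a1 10 cells held 23.0%. The median cell stood at 222 CPM of Col1a1, the mean over cells at 1116 CPM and the summed level at 3075 CPM. Over all collagens the lowest cell held 0 CPM, the median cell 6016 CPM and the highest cell 78450 CPM. The level of the class is therefore far above that of its usual cell for the fibrillar genes, and the summed collagen level fell from 15100 to 13770 CPM without the 1 cell of most collagen.

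Clustering the fibroblast-like cells again, a step chosen after the data were seen and also run without collagen genes, gave 5 sub-clusters. Sub-cluster 5 held 25 cells, or 10.8% of the class, and 83.3% of its Col1a1 counts, 72.9% of Col3a1, 65.5% of Col1a2, 82.3% of Col8a1 and 68.4% of Col12a1. It held 21.5% of the UMIs of the class but 11.6% of Col4a1 and 9.85% of Col15a1, so that Col4a1 stood at 686 CPM there and 1437 CPM in the other fibroblast-like cells. Its summed collagen level was 41570 CPM, against 6360 to 9821 CPM in the other 4. Per cell, Col1a1 in sub-cluster 5 ran from 0 to 25010 CPM with a median of 1421 CPM, and overlapped the other sub-clusters, whose highest cells stood at 2716 to 8067 CPM.

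Sub-cluster 5 was led by H19, C1qtnf3, Tac1, Lrrc15, Adam12, F2rl1 and Postn. Postn, a matrix protein of wound and tendon fibroblasts, stood at 6053 CPM there and 109 CPM in the other fibroblast-like cells. The 7 tenocyte markers summed to 5470 CPM in sub-cluster 5, 488 CPM in the other fibroblast-like cells and 18780 CPM in tenocyte-like cells. Thbs4 alone made 4957 CPM of the first sum, and Kera, another of the 7, stood at 42.2 CPM in sub-cluster 5, 302 CPM in tenocyte-like cells and 0 in the other fibroblast-like cells. The 10 fibroblast markers summed to 14050 CPM against 49750 CPM in the other fibroblast-like cells, with none of the 10 at 0 in either. Dcn and Gsn made most of the second sum, while Mfap5 (2956 against 985 CPM) and Lum (1024 against 429 CPM) were higher in sub-cluster 5. Ptprc had no count in sub-cluster 5, and its 7 smooth muscle markers summed to 80.5 CPM. The part of tendon cells in its collagen level was not tested.

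Without sub-cluster 5 the summed collagen level of the class was 7831 CPM and the fibrillar share of its collagen counts 44.98%, against 64.5% with it. Col1a1, Col1a2, Col3a1, Col6a1, Col6a6 and Col14a1 were led by fibroblast-like cells also without it, at ratios of 4.24, 4.11, 5.97 and 4.77 for the first 4 and 9.37 for Col14a1. Col5a1 (2.40), Col5a2 (2.13) and Col6a2 (3.93) were not. At resolution 2.0, 8 of the 25 cells of sub-cluster 5 fell with 16 lung fibroblast-like cells into a cluster of 9 muscle and 16 lung cells that took the mural name, and the mural-like level was then 13900 CPM.

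**Figure D2:**
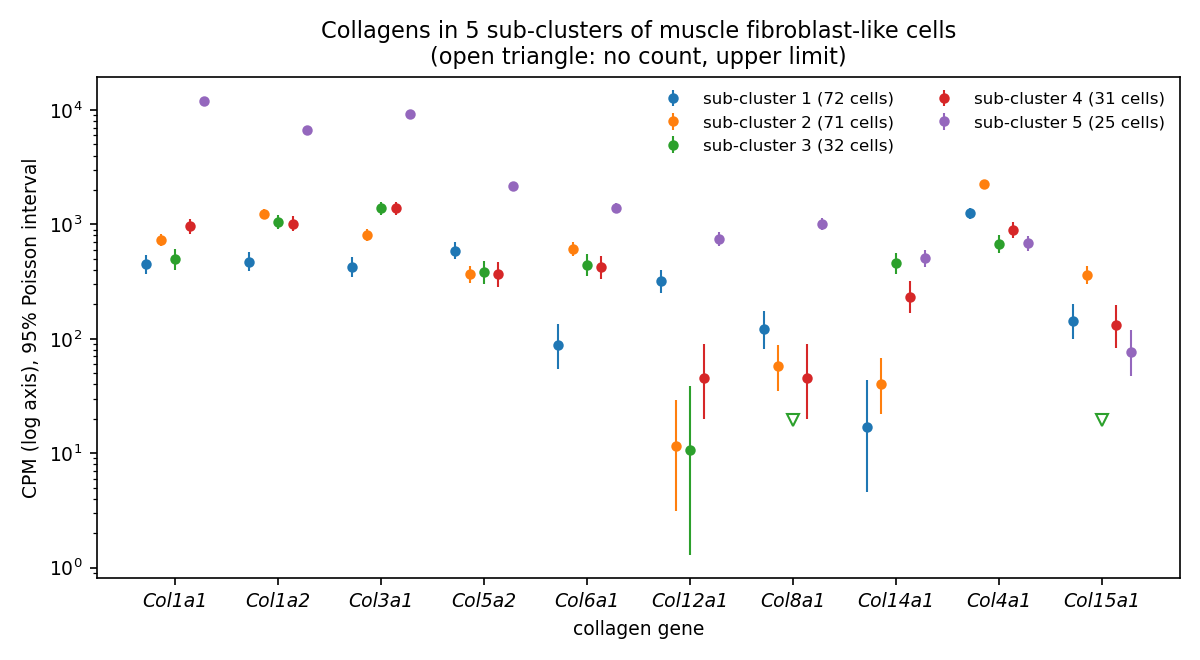
Points are CPM (log axis) with 95% Poisson intervals for 10 collagen genes in the 5 sub-clusters of muscle fibroblast-like cells. Open triangles mark the upper limit where a gene had no count. Sub-cluster 5 stands highest for Col1a1 (11890 CPM) and Col3a1 (9162 CPM), while Col4a1 and Col15a1 are highest in sub-cluster 2.

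The other sub-clusters differed in fibrillar and other collagens. Among these 4, Col3a1 ran from 426 CPM in sub-cluster 1 to 1385 CPM in sub-cluster 4, and Col1a2 from 472 CPM in sub-cluster 1 to 1242 CPM in sub-cluster 2. Sub-cluster 2, with 71 cells and Hsd11b1 and Cxcl14 among its leading genes, held the most Col4a1 (2243 CPM), Col15a1 (361 CPM) and Col6a6 (180 CPM). Sub-cluster 3, with 32 cells, held the most Pi16 (3002 CPM) and Dpp4 (541 CPM), 2 genes of the fibroblasts that lie around vessels and in fascia. It held Col14a1 at 456 CPM, near the 506 CPM of sub-cluster 5, and no count of Col15a1 or Col8a1. Sub-cluster 1, with 72 cells, held the most Col4a3 (105 CPM) and little Col14a1 (16.9 CPM). Its Malat1, a nuclear RNA, stood at 22670 CPM, its leading genes included the endothelial genes Timp4 and Flt1, and their part in these collagen values was not tested.

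Basement membrane collagens were spread over all stromal and vascular classes. The genes Col4a1 and Col4a2, which encode the common type IV network, lie head to head with RefSeq start sites 21 bases apart on opposite strands. Col4a2 (plus strand) starts at base 11312805 of chromosome 8 and Col4a1 (minus strand) at 11312826, so the 2 annotated transcripts overlap between these sites. Col4a1 stood at 1275 CPM [1212 to 1340] in fibroblast-like, 938 CPM [908 to 969] in endothelial-like, 878 CPM [809 to 952] in mural-like, 423 CPM in Schwann-like, 311 CPM in tenocyte-like and 221 CPM in satellite-like cells. The intervals of endothelial-like and mural-like cells overlapped, as did those of Schwann-like and tenocyte-like cells. Col4a2 stood at 798 CPM [770 to 827] in endothelial-like, 701 CPM [639 to 768] in mural-like and 688 CPM [642 to 737] in fibroblast-like cells, then at 318, 224 and 173 CPM in Schwann-like, tenocyte-like and satellite-like cells. No class exceeded the next of the 5 by more than 1.36 times for Col4a1 or 1.14 times for Col4a2.

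The count of Col4a1 per count of Col4a2 ran from 1.18 [1.12 to 1.23] in endothelial-like cells to 1.85 [1.70 to 2.02] in fibroblast-like cells, with mural-like cells at 1.25. Among clusters it was lowest in an endothelial-like cluster of 436 cells, 0.973 [0.898 to 1.05], and highest in a fibroblast-like cluster of 128 cells, 2.01 [1.81 to 2.23]. The pair was thus counted in a proportion that moved by about the width of these values over muscle stroma.

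The other 4 type IV chains form specialised networks in kidney, lung, ear and smooth muscle. Col4a3 stood at 37.1 CPM [27.1 to 49.7] and Col4a4 at 64.4 CPM [50.9 to 80.4] in fibroblast-like cells, against 11.9 and 19.4 CPM in mural-like cells. Col4a5 stood at 44.7 CPM [30.1 to 63.8] in mural-like and 38.0 CPM [27.8 to 50.6] in fibroblast-like cells. Col4a6 stood at 23.8 CPM (16 counts in 8 cells) in mural-like cells and had 3 counts in fibroblast-like cells. All 16 mural counts of Col4a6 lay in the mural-like cluster whose leading genes include Myocd and Prkg1, where Col4a5 was also higher, at 62.7 against 20.8 CPM in the cluster with Kcnj8, Rgs5 and Vtn. Malat1 stood at 36610 CPM in the first of these clusters and 7663 CPM in the second, and the part of nuclear RNA was not tested. Tenocyte-like cells had no count of these 4 genes, which allows up to 13.7 CPM each.

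Multiplexins, Col15a1 and Col18a1, tie basement membranes to the matrix below, and the end of type XVIII collagen is cut off as endostatin. Col15a1 stood at 168 CPM [145 to 192] in fibroblast-like, 108 CPM [97.9 to 119] in endothelial-like, 56.6 CPM in mural-like and 44.8 CPM in Schwann-like cells. Col18a1 was highest in Schwann-like cells with 171 CPM [123 to 231], then 71.5 CPM in mural-like, 64.0 CPM in tenocyte-like, 55.3 CPM in fibroblast-like, 37.8 CPM in satellite-like and 29.0 CPM in endothelial-like cells. The Schwann-like level was 2.39 times the mural-like one [1.54 to 3.70], under the 4-fold limit.

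Muscle endothelial-like cells were not alike in their collagens. Their 5 clusters held 808 to 2854 CPM of collagen. The 118 cells led by Selp, Ackr1 and Sele, genes of venules, held Col15a1 at 352 CPM [309 to 399], against 3.06 to 63.2 CPM in the other 4 clusters, and 27 of the 32 Col13a1 counts. The 57 cells led by Gkn3, Fbln5 and Alpl, arterial genes, held Col8a1 at 239 CPM [189 to 298] and Col5a2 at 88.8 CPM [59.5 to 128], with Col4a1 at 230 CPM, the lowest of the 5. The 497 cells led by Gpihbp1 and Aqp1, capillary genes, held Col4a1 at 1138 CPM and Col18a1 at 2.39 CPM. Col4a1 (1225 CPM) and Col4a2 (1258 CPM) were highest in a cluster of 436 cells led by Ccdc85a, Cdh13 and Mecom, which also held the most Col28a1 (46.9 CPM). Malat1 stood at 12800 CPM in these 436 cells and 722 to 8053 CPM in the other 4 clusters, and the part of nuclear RNA was not tested. The remaining 92 cells (median 1713 UMIs) held Col4a1 at 502 CPM. Acta1, a muscle fibre gene, stood at 19520 CPM in them and 21.4 to 95.8 CPM in the other 4 clusters. The part of fibre RNA in their collagen values was not tested. The 87 lung cells of the same cluster took no name.

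**Figure D3:**
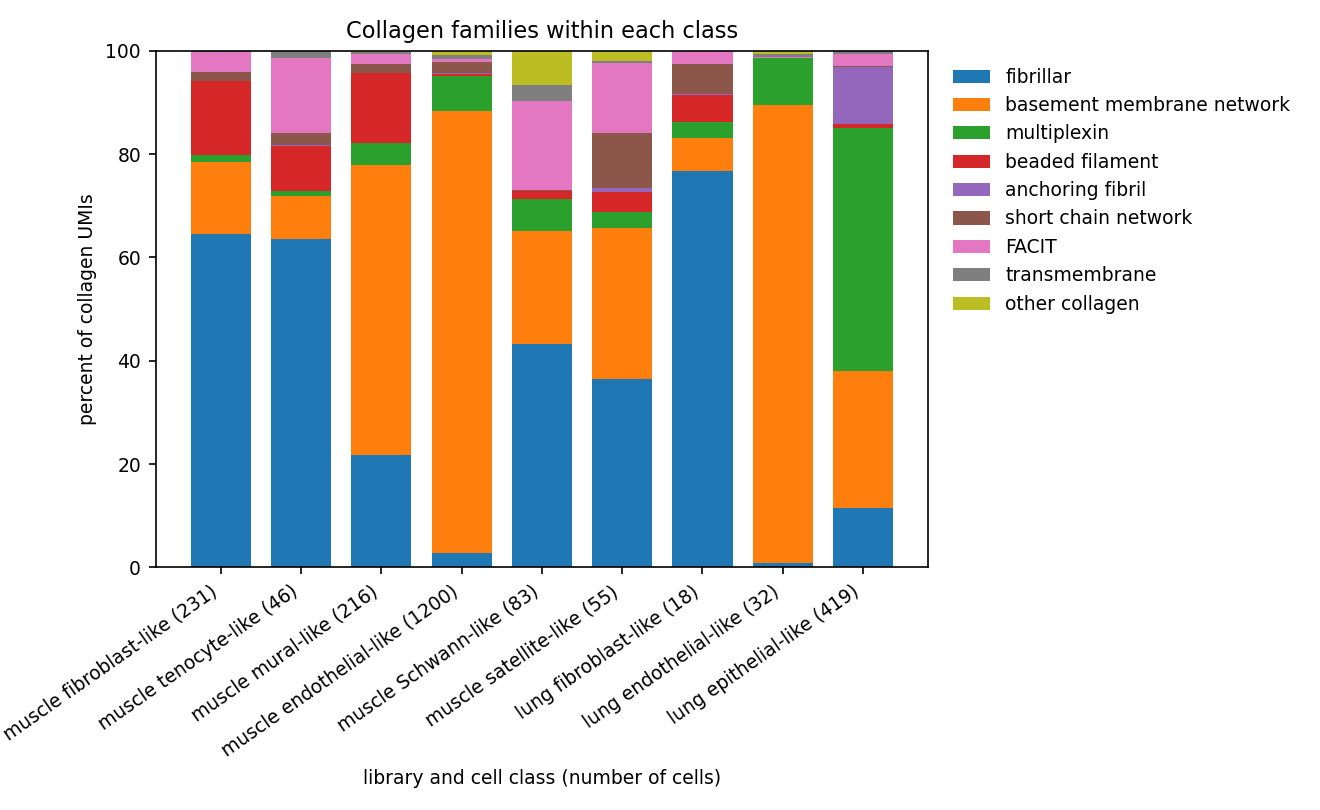
Stacked bars give the percent of collagen UMIs from each collagen family in 9 classes of muscle and lung cells. Fibrillar collagens take 64.5% in muscle fibroblast-like cells, and basement membrane network collagens 85.7% in muscle and 88.7% in lung endothelial-like cells.

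The make-up of the collagen counts set the classes apart. Fibrillar collagens took 64.5% [63.8 to 65.2] of collagen counts in fibroblast-like, 63.6% in tenocyte-like, 43.3% in Schwann-like, 36.5% in satellite-like, 21.7% in mural-like and 2.78% [2.43 to 3.17] in endothelial-like cells. Basement membrane network collagens took 85.7% [84.9 to 86.4] in endothelial-like and 56.1% [53.9 to 58.3] in mural-like cells, against 29.3%, 21.9%, 13.95% and 8.23% in satellite-like, Schwann-like, fibroblast-like and tenocyte-like cells. Beaded filament collagens took 14.2% in fibroblast-like and 13.6% in mural-like cells. FACITs took 17.2% in Schwann-like, 14.5% in tenocyte-like and 13.7% in satellite-like cells and at most 3.76% in the other 3 muscle classes. These are shares of counted molecules and depend on how well each gene is captured.

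Schwann-like cells held a set of minor collagens. Their Malat1 stood at 20410 CPM, below the 24170 CPM of mural-like cells. It was 10500 CPM in fibroblast-like, 7730 CPM in satellite-like and 6663 CPM in endothelial-like cells. The part of nuclear RNA in these collagen values was not tested. Col24a1, a minor fibrillar collagen, stood at 326 CPM [258 to 405] there and 14.9 CPM in fibroblast-like cells, a ratio of 21.92 [13.03 to 38.86]. Col20a1, a FACIT, stood at 354 CPM [284 to 437] against 5.39 CPM (1 count) in satellite-like cells, a ratio of 65.7 [11.5 to 2623]. Col28a1, a collagen known from nerve, stood at 204 CPM [151 to 268] against 17.0 CPM in endothelial-like cells, a ratio of 12.0 [8.14 to 17.6]. Col27a1, a fibrillar collagen of cartilage, stood at 171 CPM [123 to 231] against 38.8 CPM in fibroblast-like cells, a ratio of 4.41 [2.84 to 6.83] that fell under the 4-fold limit with TMM scaling (3.53) and with at least 500 genes per cell (3.86).

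These genes were divided between the 2 Schwann-like clusters. The first held 56 cells with Cldn19 and Drp2, genes of myelin-forming cells, among its leading genes, and the second 27 cells with Cdh19, Chl1 and Cadm2. Col24a1 had 80 counts (505 CPM [400 to 628]) in the first and none in the second, where 3 counts would be 34.5 CPM. Col20a1 had 87 counts (999 CPM [800 to 1233]) in the second and none in the first, where 3 counts would be 18.9 CPM. Col27a1 stood at 460 CPM in the second and 12.6 CPM (2 counts) in the first, and Col11a1, Col16a1 and Col5a3 were also higher in the second, at 230, 299 and 448 CPM against 0, 56.8 and 183 CPM. Col23a1, a transmembrane collagen, ran the other way, with 26 counts (164 CPM) in the first cluster and none in the second. Col28a1 stood at 202 CPM [138 to 285] and 207 CPM [122 to 327] in the 2 clusters, where it was seen in 18 of 56 and 3 of 27 cells.

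Col24a1 was seen in 28 of 56 cells of the first cluster (median 2520.5 UMIs) and in 1 of 309 muscle leukocytes (0.324% of them, median 6787 UMIs). Col20a1 was seen in 15 of 27 cells of the second cluster (55.6%, median 3406 UMIs) and in 7 of 309 leukocytes (2.27%). After thinning to 1000 UMIs per cell, with 1 cell of the first cluster, 2 of the second and 4 leukocytes left out as shallower, the shares were 34.5% and 40.0% against 0% for both genes in leukocytes. For Col28a1 the second cluster rested on 3 of 27 cells, 1 of which held 14 of the 18 counts.

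Fibrillar collagens differed between the 2 clusters too. Col1a1 stood at 202 CPM in the first and 68.9 CPM in the second, and Col3a1 at 6.31 CPM (1 count) and 230 CPM (20 counts). The first cluster thus had 32 counts of Col1a1 to 1 of Col3a1, and the second 6 to 20.

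Satellite-like cells led 1 collagen, Col19a1, a FACIT of muscle and nerve basement membrane zones. It stood at 162 CPM [109 to 231] there and 5.96 CPM (4 counts, all in 1 cell) in mural-like cells, a ratio of 27.2 [9.57 to 106]. The 30 counts lay in 15 of 55 satellite-like cells (27.3%, median 3165 UMIs), 1 of which held 9, and in none of 309 leukocytes. After thinning the share was 9.09%, and with a minimum of 500 genes per cell or of 100 counts the gene was no longer called. Satellite-like cells also held Col8a1 at 151 CPM [100 to 218], second to the 266 CPM of fibroblast-like cells, but 17 of the 28 counts came from 1 cell. Col5a1 (102 CPM) and Col3a1 (156 CPM) were spread over 14 and 19 cells.

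**Figure D4:**
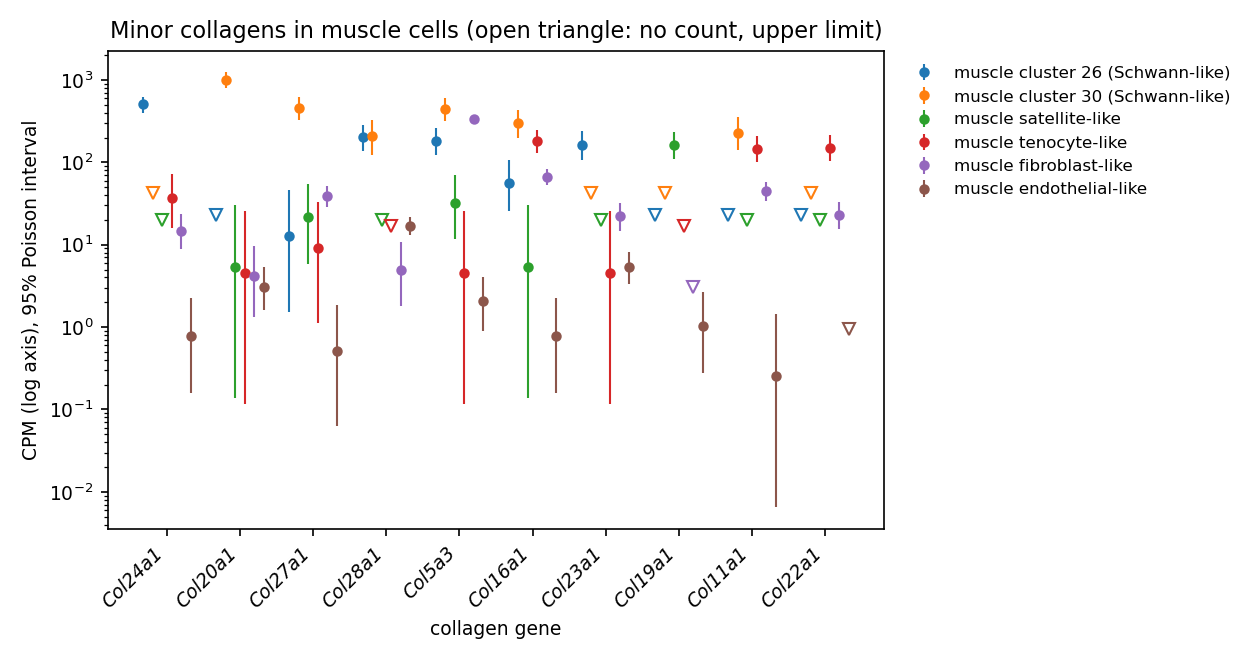
Points are CPM (log axis) with 95% Poisson intervals for 10 minor collagens in 2 Schwann-like clusters and 4 other muscle classes. Open triangles mark the upper limit where a gene had no count. Col24a1 (505 CPM) and Col20a1 (999 CPM) lie in different Schwann-like clusters, and Col19a1 (162 CPM) stands highest in satellite-like cells.

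Collagen needs many helpers, and those on 4 gene lists were counted by the same rule. It compared the 5 muscle classes without tenocyte-like cells, and 8.67% of all genes tested were led by a class. Of 20 genes of chain folding and modification tested, 1 was led by a class, which is no more than that share: P4ha3, a prolyl hydroxylase subunit, at 29.7 CPM in fibroblast-like cells against 0.257 CPM (1 count) in endothelial-like cells. The collagen chaperone Serpinh1 stood at 432 CPM in fibroblast-like, 272 CPM in endothelial-like and 151 CPM in Schwann-like cells. Of 18 genes of processing and crosslinking tested, 9 were led by a class, all by fibroblast-like cells. Among them were Dcn, a proteoglycan that binds fibrils (16480 CPM), Fn1 (fibronectin, 1356 CPM), Bgn (992 CPM) and Pcolce, which speeds removal of the C-propeptide (622 CPM). Dcn and Lum, both on this list, were among the markers that named the class, so their levels there follow in part from the naming. Tenocyte-like cells, outside the 5 classes, held more Dcn than fibroblast-like cells, at 19860 CPM.

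Of 7 collagen receptor genes tested 3 were led by a class. Itga11, the integrin subunit that binds fibrillar collagen, stood at 87.5 CPM in fibroblast-like cells against 1.49 CPM in mural-like cells, and Mrc2, which takes up collagen, at 184 CPM against 32.4 CPM in satellite-like cells. Adgrg1 stood at 417 CPM in endothelial-like against 89.3 CPM in mural-like cells. Adgrg6, a receptor that type IV collagen binds in Schwann cells, stood at 216 CPM in Schwann-like and 124 CPM in mural-like cells. Of 11 partners of type IV collagen in basement membranes 1 was led by a class, a share near that of all genes: Nid1 (nidogen) at 1017 CPM in fibroblast-like cells.

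The 18 lung fibroblast-like cells held Col1a1 at 11690 CPM [11330 to 12060], above every muscle class and near the 11890 CPM of muscle fibroblast sub-cluster 5, with Col1a2 at 8040 CPM, Col3a1 at 7007 CPM, Col5a2 at 3272 CPM and Col8a1 at 2197 CPM. Fibrillar collagens made up 76.8% of their collagen counts. Col15a1 stood at 1332 CPM and Col12a1 at 718 CPM, and Col6a6, Col4a3, Col4a4 and Col19a1 had no count. Col10a1, a collagen known from growth cartilage, had 87 counts (257 CPM) in 4 of the 18 cells and none in any muscle class described here, and 1 cell held 69.0% of them. Col6a1 counts per Col6a3 count were 0.276 [0.224 to 0.336].

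These lung values rested on few and uncertain cells. 1 cell held 36.1% of their collagen counts and 85.1% of the Col14a1 counts, and the summed level was 33260 CPM without that cell of most collagen. Their median depth was 17602.5 UMIs against 4314 in muscle fibroblast-like cells. Their 10 fibroblast markers summed to 2032 CPM and their 7 smooth muscle markers to 2504 CPM, with none of either list at 0. Tnc stood at 1781 CPM, Postn at 998 CPM and Cthrc1 at 372 CPM, genes of activated, matrix-making fibroblasts. In 5 other settings of clustering or doublet removal 16 to 18 of the 18 took the mural name or none, while under other limits on mitochondrial UMIs or genes most of those kept were still named fibroblast-like. No gene was called between the 2 tissues' fibroblast-like cells.

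Endothelial-like cells could be compared between tissues, 1200 muscle cells (median 2703 UMIs) with 32 lung cells (median 6073.5 UMIs). A gene was called apart at a ratio of 4 with an interval excluding 2 and at least 30 counts in the higher tissue. Of 9 collagens tested, 2 were higher in lung and 1 in muscle, where 1.39% and 2.95% of all 9212 genes were. The median lung over muscle ratio of the collagens was 1.43 on the log2 scale and that of all genes 0.017.

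Col4a1 stood at 4407 CPM [4184 to 4640] in lung and 938 CPM in muscle endothelial-like cells, a ratio of 4.70 [4.419 to 4.995]. It fell under the 4-fold limit with TMM scaling (3.85) and with up to 20% mitochondrial UMIs (3.94), and the mean over cells gave 3.09. Without the 1 lung cell that held 17.9% of its counts the lung level was 4312 CPM. Col18a1 stood at 428 CPM [360 to 505] and 29.0 CPM [23.9 to 34.9], a ratio of 14.8 [11.4 to 19.1]. Col8a1 had 178 counts (45.8 CPM) in muscle and none in lung, at least 5.02-fold higher in muscle against a limit of 3 counts (9.11 CPM). Under the 4-fold limit lay Col4a2 (2664 against 798 CPM, 3.34 [3.09 to 3.60]), Col15a1 (301 against 108 CPM, 2.79), Col28a1 (45.6 against 17.0 CPM, 2.69) and Col5a2 (24.3 against 26.7 CPM, 0.909).

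The kinds of endothelial cell differed between the tissues. Of the 32 lung cells 29 lay in the cluster that in muscle holds the 118 venule-like cells, and the leading genes of the 29, Esm1, Apln, Plvap and Foxf1 among them, were not those of the 118. Within this cluster Col4a1 stood at 4497 against 515 CPM (8.73 [7.76 to 9.84]), Col4a2 at 2687 against 488 CPM (5.51 [4.85 to 6.27]) and Col18a1 at 458 against 92.4 CPM (4.95 [3.66 to 6.77]). Col15a1 then stood at 294 against 352 CPM (0.835 [0.648 to 1.07]) and Col13a1 at 19.6 against 39.0 CPM (0.503). Lung stood above muscle for Col4a1 and Col18a1 in both comparisons. For Col15a1 all lung endothelial-like cells stood 4.76 to 98.2 times above the other 4 muscle clusters, and not above this one. The ratio of 98.2 [17.2 to 3918] rested on 1 muscle count (3.06 CPM), in the 57 cells with arterial genes. Col8a1 could not be compared within the cluster, with 1 count in muscle and none in lung.

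**Figure D5:**
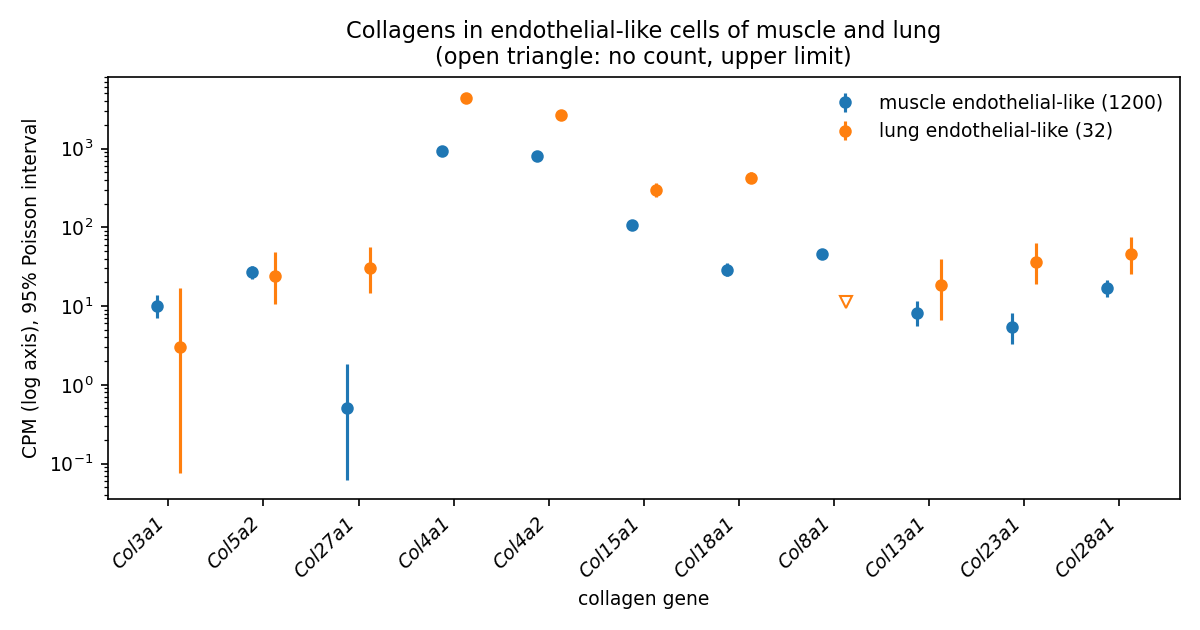
Points are CPM (log axis) with 95% Poisson intervals of collagens in muscle (1200 cells) and lung (32 cells) endothelial-like cells. An open triangle marks the upper limit where a gene had no count. Lung stands above muscle for Col4a1 (4407 against 938 CPM) and Col18a1 (428 against 29.0 CPM), and Col8a1 has counts in muscle only.

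In lung epithelial-like cells the leading collagens were of another kind. Col18a1 stood at 189 CPM [175 to 204] and made most of the 47.1% [44.5 to 49.7] of collagen counts that were multiplexins, with Col15a1 at 1.41 CPM. Col7a1, the anchoring fibril collagen that fastens epithelia to the matrix, stood at 44.7 CPM [38.0 to 52.2], above the 0 to 10.8 CPM of the 6 muscle classes and below the 76.8 CPM (26 counts) of lung fibroblast-like cells. Col4a1 stood at 54.0 CPM, Col4a2 at 49.2 CPM and Col27a1 at 32.1 CPM. Nearly all these counts lay in 1 cluster of 116 cells (median 23727.5 UMIs) with Col18a1 at 205 CPM, while the other epithelial cluster of 303 shallow cells (median 744 UMIs) held 49.0 CPM. Xist, an RNA of female cells, stood at 1058 CPM in the 116 cells and 46.3 CPM in the 303. It had 0 CPM in lung fibroblast-like and endothelial-like cells, 3.32 CPM in lung leukocytes and 0.452 CPM in kept muscle cells. Whether the 116 cells were lung epithelium or tumour cells was not tested.

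Leukocytes held few collagen counts. In lung leukocytes Col1a1, Col1a2, Col3a1, Col5a1, Col5a2 and Col5a3 stood at 0.0303% to 0.0515% of the lung fibroblast-like level. Col27a1, also fibrillar, lay above this range. It was among the most counted collagens of lung leukocytes but stood at 85.6 CPM in lung fibroblast-like cells. The source of the leukocyte counts was not tested. Col4a1 stood at 0.314% and Col15a1 at 0.398% of the lung fibroblast-like level. In muscle leukocytes Col1a1 stood at 0.108% and Col4a1 at 0.683% of the fibroblast-like level. Some collagens stood out in single leukocyte groups. Col14a1 reached 33.0 CPM [25.02 to 42.79] in a lung macrophage-like cluster of 204 cells and 10.1 CPM [7.88 to 12.7] in the other macrophage-like cluster, against 0.203 CPM [0.00515 to 1.13] in lung lymphoid cells. In the same 204 cells Col15a1 stood at 12.75 CPM [7.99 to 19.3], with 22 counts in 15 cells. The 1633 lung lymphoid cells held 9 counts of it. An unnamed lung cluster of 459 cells held Col15a1 at 29.2 CPM [18.7 to 43.5]. Col27a1 reached 69.9 CPM [51.7 to 92.5] in lung cells like migratory dendritic cells (23 of 152 cells), against 2.03 CPM [0.976 to 3.74] in lung lymphoid cells (10 of 1633 cells, median 2344 against 2147.5 UMIs).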

How the data were processed

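Muscle and lung cells were counted with the 10x Genomics 5' v2 kit, per the labels' protocols. The deposited matrices hold raw UMI counts, whole numbers for each barcode and gene. The submitters' processing notes list Cell Ranger 7.0.1 and build GRCm39. Which annotation release was used, whether introns were counted and how cells were called are not given in the sources used here. The promoters come from RefSeq tables of another build, used for sequence and not for counting. No deposited barcode held fewer than 500 UMIs.

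Barcodes under 200 genes or over 10% mitochondrial UMIs were left out. Likely doublets (0.8% per 1000 barcodes, 100 muscle and 556 lung cells) were removed by a neighbour score against 2 simulated doublets per cell. The libraries were clustered together in Python 3.11.15 (scanpy 1.11.5, leidenalg 0.10.2): 2000 variable genes without collagens, 30 principal components, 15 neighbours and Leiden resolution 1.0. A cluster took the name of the marker list with the highest mean log2 fold over other cells provided that 3 or more of its markers rose 2-fold and were seen in 10% of the cluster's cells. No collagen was a marker. Names are therefore likenesses, rebuilt here. Raw counts were summed per class and divided by the class total (CPM). Levels have exact Poisson intervals, shares exact Clopper-Pearson intervals and ratios exact conditional binomial intervals, at 95%, and all cover counting error only. Where a class had no count, a floor of 3 counts was used. The size rule was checked on simulated data. Collagens were named when they had at least 10 counts and 10 CPM in a named class of at least 20 cells, and helper genes when led by 1 class, at most 4 per list by level. Genes named outside this rule, and the sub-clusters, were chosen after their values were seen. The members and lists were chosen with earlier results of these data known.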

Additional observations from a re-analysis of the deposited data

Results flagged for a closer look

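Collagen counts were also present in barcodes that entered none of the comparisons. The 3304 muscle barcodes over the mitochondrial limit held 1487 CPM of collagen [1452 to 1522], against 3484 CPM in kept muscle cells, with Col4a1 at 446 CPM and Col1a1 at 80.2 CPM. The 100 muscle barcodes removed as likely doublets held 2411 CPM [2273 to 2555]. In lung the 287 barcodes over the mitochondrial limit held 424 CPM [374 to 478] and the 556 likely doublets 226.7 CPM [213 to 241], against 677 CPM in kept lung cells. A lung cluster of 87 shallow cells (median 706 UMIs) that took no name held 3183 CPM [2805 to 3598], with Col4a1 at 671 CPM, Col1a1 at 535 CPM and Col1a2 at 497 CPM. Its leading genes included Tmem100, Lyve1, Mgp and Inmt, and smooth muscle was its best marker list, followed by endothelium. All 5 values lie above the limit set by 3 counts.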

How the results depend on the processing

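Each of 39 results was computed again under up to 20 other settings. Of 284 repeats of a called ratio of 1 gene, 243 kept the call, 34 fell under the rule in the same direction and 7 reversed. No paired analysis was possible because each tissue had 1 library.

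The clustering mattered most. At resolution 2.0, 8 of the 25 cells of fibroblast sub-cluster 5 joined 16 of the 18 lung fibroblast-like cells in a cluster with mural markers. The ratio of fibroblast-like to the next class was then 0.168 for Col1a1, 0.457 for Col1a2, 0.314 for Col3a1, 0.649 for Col5a1, 0.789 for Col5a2, 0.837 for Col6a1 and 0.638 for Col6a2. Fibroblast-like cells led 2 collagens and mural-like cells 1, summed levels were 8056 CPM in fibroblast-like and 13900 CPM in mural-like cells, the basement membrane share of mural-like cells was 10.7% and the fibrillar share of fibroblast-like cells 44.2%. The 2 of 18 lung cells still named fibroblast-like held 5160 CPM and 73.9% fibrillar counts, both there and with collagens allowed in clustering. At resolution 0.5 levels were 13380 CPM in muscle fibroblast-like and 7167 CPM in lung endothelial-like cells, and the mural basement membrane share 53.7%. With collagens allowed in clustering they were 14580 and 7165 CPM. Clustering each library on its own gave 16250 CPM and 65.4% fibrillar counts in muscle fibroblast-like cells and 84.3% basement membrane counts in muscle endothelial-like cells.

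Without doublet removal levels were 14140, 2084 and 2850 CPM in muscle fibroblast-, endothelial- and mural-like and 4651 and 7151 CPM in lung fibroblast- and endothelial-like cells, with 80.0% fibrillar counts in the lung fibroblast-like cells, of which 17 of the 18 had gone to the mural name. At most 5% mitochondrial UMIs gave 19130 and 2164 CPM in muscle fibroblast- and mural-like cells, 51070 and 8377 CPM in lung fibroblast- and endothelial-like cells, fibrillar shares of 69.4% and 74.3% in muscle and lung fibroblast-like cells, and basement membrane shares of 59.6% in mural-like and 90.9% in lung endothelial-like cells. The Schwann-like and satellite-like classes were then absent, so leads were not computed. At most 20% gave 14350, 41470 and 6636 CPM in muscle fibroblast-, lung fibroblast- and lung endothelial-like cells, a share of 90.9% in the last, and 1 collagen higher in lung. At least 500 genes gave 2097 CPM in muscle endothelial-like and 38500 CPM in lung fibroblast-like cells, a share of 91.1% in lung endothelial-like cells, and 0 collagens led by satellite-like cells.

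Totals without mitochondrial genes and Rn18s raised levels to 16400, 2256, 3310 and 3846 CPM in muscle fibroblast-, endothelial-, mural- and Schwann-like and 45280 and 8869 CPM in lung fibroblast- and endothelial-like cells. TMM scaling gave 16040, 2286 and 2974 CPM in muscle fibroblast-, endothelial- and Schwann-like cells and 1 collagen higher in lung. Subtracting free RNA gave a muscle endothelial basement membrane share of 86.6%. A minimum of 10 counts or none gave 4 collagens higher in lung, and no minimum 1 led by mural-like cells (Col25a1). A minimum of 100 counts left 0 led by Schwann-like and 0 by satellite-like cells. The 2-fold rule gave 4 collagens higher in lung. The 8-fold rule gave 1, and 5 led by fibroblast-like cells.

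Other settings were chosen after seeing the data. The mean over cells gave 9219 and 2203 CPM in muscle fibroblast- and endothelial-like and 29710 and 5986 CPM in lung fibroblast- and endothelial-like cells. Without the cell of most collagen in each class levels were 13770 and 2806 CPM in muscle fibroblast- and mural-like and 33260 CPM in lung fibroblast-like cells, with fibrillar shares of 61.7% and 81.7% in the fibroblast-like cells of muscle and lung. Without sub-cluster 5 the muscle fibroblast-like level was 7831 CPM and its fibrillar share 44.98%. With tenocyte-like cells as a sixth class fibroblast-like cells led 3 collagens. The lung over muscle ratio of Col4a1 ran from 3.09 (mean over cells) to 4.98 and was called in 13 of 17 settings. The lung fibroblast-like class had no value at resolution 0.5, where all 18 cells took the mural name, nor with each library on its own, where all 18 were unnamed. Except where a changed cell membership or total is named, the cause was not tested. Depth limited the classes of under 100 cells, where 3 counts were 12.2 CPM in Schwann-like, 16.2 CPM in satellite-like and 9.11 CPM in lung endothelial-like cells.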
